A study of Mus musculus with 18 samples.

Results

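The miR-101 family was followed in small RNA libraries of NIH/3T3 cells, a mouse embryonic fibroblast line, before (input) and after immunoprecipitation with an antibody against pseudouridine (Ψ), the C-glycoside isomer of uridine. It is represented by 3 of the 1907 mature microRNAs (miRNAs) quantified: mmu-miR-101a-3p, mmu-miR-101a-5p and mmu-miR-101b-3p. These members were chosen by name, as a family whose reads were scarce in the IP in an earlier look at the same libraries, so their IP over input ratios are described here and not tested. All groups were of the same cell line, either wild type (WT) or with knockdown of Pus1, the gene of a Ψ synthase, of 3 days (KD3) or 6 days (KD6). Input and IP were each sequenced in 3 replicates, named A, B and C, per condition, which gave 18 libraries. How the knockdown was made and what a replicate letter shares are not given in the sources used here, so p-values cover the spread between these libraries, which may be technical. Only miRNAs were quantified, and the Pus1 transcript was not analysed here, so the knockdown itself was not checked.

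miRNAs are short RNAs that are cut from a hairpin precursor by Drosha and Dicer and loaded into an Argonaute protein. One arm of the hairpin usually persists as the guide, and the other, the passenger, is discarded. The guide recognizes target mRNAs chiefly through its seed, bases 2 to 8, and represses them. In mammals miR-101 is best known for repressing Ezh2, the histone methyltransferase of Polycomb repressive complex 2. The 3p arm is the guide, and it is made from a pair of genes on different chromosomes.

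The mature sequences are shown because the members differ mainly in where they begin. They are from RefSeq (GRCm38.p6), written 5′ to 3′ with the seed in capitals.
mmu-miR-101a-3p: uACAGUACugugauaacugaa
mmu-miR-101b-3p: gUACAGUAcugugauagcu
mmu-miR-101a-5p: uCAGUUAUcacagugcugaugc
mmu-miR-101c: aCAGUACUgugauaacuga

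As annotated, mmu-miR-101b-3p started 1 base upstream of mmu-miR-101a-3p, and its seed was therefore read 1 base earlier along the same stretch. Over the 18 bases that both cover, 17 were identical and the remaining one was A16G, numbered from 1 at the 5′ end of mmu-miR-101a-3p. Guides that are cut at the annotated ends thus share ACAGUA but place it at position 2 in mmu-miR-101a-3p and at position 3 in mmu-miR-101b-3p. The mmu-miR-101c entry, which is not a member, lay entirely within mmu-miR-101a-3p, with 19 of 19 bases identical and its start 1 base later.

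The precursors are shown with both arms in capitals, since the arms were compared below.
Mir101a: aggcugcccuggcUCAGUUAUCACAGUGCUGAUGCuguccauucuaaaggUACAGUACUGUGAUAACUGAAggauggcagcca
Mir101b: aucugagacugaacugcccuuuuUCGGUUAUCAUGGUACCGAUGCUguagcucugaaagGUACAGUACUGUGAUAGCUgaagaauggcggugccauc

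In GRCm38.p6, Mir101a lay at chr4:101346945-101347027 on the minus strand, within an exon of the lincRNA gene E130102H24Rik on the same strand. Mir101b lay at chr19:29135279-29135375 on the plus strand, in an intron of the protein-coding gene Rcl1, which has the same orientation. The entry for mmu-miR-101c was at chr9:3038680-3038698 on the minus strand, and no other annotated gene overlapped it. Each member had a single row of counts, so no copies had to be combined.

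Replicate A of the KD6 input was shallow, with 241109 mapped reads, and the remaining libraries held 3989031 to 15099781. The fraction of mapped reads that fell outside miRNA rows averaged 5.60% ± 0.225 (SD, n = 3) for WT input and 16.8% ± 1.88 for WT IP. It was higher after knockdown, up to 32.4% ± 5.26 for KD3 IP. The part of this fraction in the results below was not tested. The fibroblast identity of the cells was checked from marker miRNAs. All 7 fibroblast and mesenchymal markers were detected in the inputs, led by miR-21a-5p at a median of 359400 reads per 1000000 miRNA reads (RPM) and miR-143-3p at 80770. Of 11 markers of blood, liver, neuron, epithelium and muscle, miR-122-5p, the main hepatocyte miRNA, had a median of 30.8 RPM and the others 1.08 RPM or less. The blood marker miR-142a-3p, the epithelial marker miR-141-3p and the muscle markers miR-133a-3p and miR-208a-3p were at 0 in all 9 inputs.

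Both 3p guides were abundant in the input cells, whereas the 5p passenger was almost absent. On the scale of counts per 1000000 miRNA reads with library sizes adjusted by TMM factors (CPM), mmu-miR-101a-3p was at 1637, 1547 and 1659 in the 3 WT inputs and mmu-miR-101b-3p at 2941, 2760 and 2892. The corresponding means were 1615 ± 59.2 and 2864 ± 93.5 (SD, n = 3), ranks 57 and 36 of the 550 miRNAs tested. The replicates of WT input thus lay close together, and mmu-miR-101b-3p was the higher of the guides in all 18 libraries. The mmu-miR-101c entry averaged 6.51 ± 1.08 CPM in WT input, and its reads came to 0.0980% to 0.467% of those of mmu-miR-101a-3p over the inputs. Since its sequence is contained in that guide, reads shared between them were divided by the authors' counting, and its values are uncertain.

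The passenger mmu-miR-101a-5p, the third member, reached at most 3 counts in a library and did not pass the filter on low counts, so 2 of 3 members were tested. Over the 9 inputs it had 9 reads against 135984 of mmu-miR-101a-3p, which is 0.00662% of both arms (exact binomial 95% interval 0.00303% to 0.0126%, counting error only). The passenger of the second gene, mmu-miR-101b-5p, had 7 reads against 213916. No read of either passenger was found in the 9 IP libraries. For mmu-miR-101a-5p, the exact binomial 95% interval of 0 reads beside 1517 of the guide reaches 0.243%. The floor of 3 counts corresponds to a share of 0.198%. A share as low as that in the inputs could thus not be seen at this depth.

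**Figure D1:**
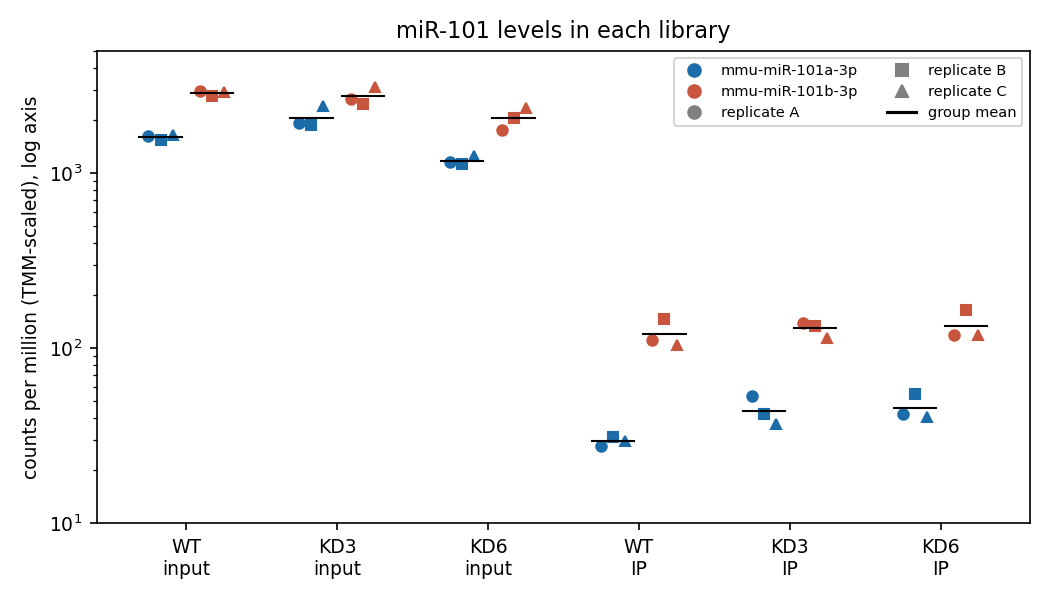
TMM-scaled CPM (vertical log axis) of mmu-miR-101a-3p (blue) and mmu-miR-101b-3p (red) in each library, by condition and fraction; symbols give the replicate letter and lines the mean of 3 libraries. All input values lie at 1133 CPM or above and all IP values at 165.1 CPM or below, and the red points lie above the blue points in every library.

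Both guides were scarce in the IP. In the WT IP libraries mmu-miR-101a-3p was at 27.7, 30.9 and 29.5 CPM, from 116, 169 and 201 reads. The other guide, mmu-miR-101b-3p, was at 111.9, 146.5 and 103.6 CPM, from 468, 802 and 707 reads. Neither guide overlapped between IP and input in WT cells, and the same was seen in KD3 and KD6. Non-overlap with lower values in the IP was found for 44.5% of all miRNAs tested in WT, 43.1% in KD3 and 26.5% in KD6, and the members had been chosen on this contrast.

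The log2 IP over input ratio of mmu-miR-101a-3p was -5.78 ± 0.23 (SE) in WT, -5.57 ± 0.23 in KD3 and -4.69 ± 0.22 in KD6. These values correspond to levels 54.9-fold, 47.4-fold and 25.9-fold lower in the IP. For mmu-miR-101b-3p the log2 ratios were -4.57 ± 0.22, -4.41 ± 0.22 and -3.94 ± 0.22, or 23.7-fold, 21.3-fold and 15.3-fold lower. These sizes are not firm and moved with the libraries and miRNAs that entered the fit. Leaving out any 1 of the 6 WT libraries brought the WT log2 ratio of mmu-miR-101a-3p to between -5.08 and -4.93. For mmu-miR-101b-3p it came to between -3.99 and -3.61. Each such fit also tested more miRNAs, 590 to 597 beside 550, with a median log2 ratio of 0.40 to 0.59 instead of -0.35. For mmu-miR-101a-3p the values with a library left out were -5.27 to -4.84 in KD3 and -4.91 to -4.14 in KD6. For mmu-miR-101b-3p they were -4.02 to -3.73 in KD3 and -4.24 to -3.35 in KD6. The median log2 ratio of all miRNAs was between -0.35 and -0.26 in the 3 conditions, and ranked from the lowest ratio mmu-miR-101a-3p was number 21, 23 and 61 of 550, and mmu-miR-101b-3p number 44, 50 and 82. The guides were therefore near the low end of the distribution, but other miRNAs had lower ratios in each condition. Once the median was subtracted, the WT values were -5.43 and -4.22. The values relative to the median moved less when a library was left out, at -5.56 to -5.37 and -4.39 to -4.13 in WT.

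**Figure D2:**
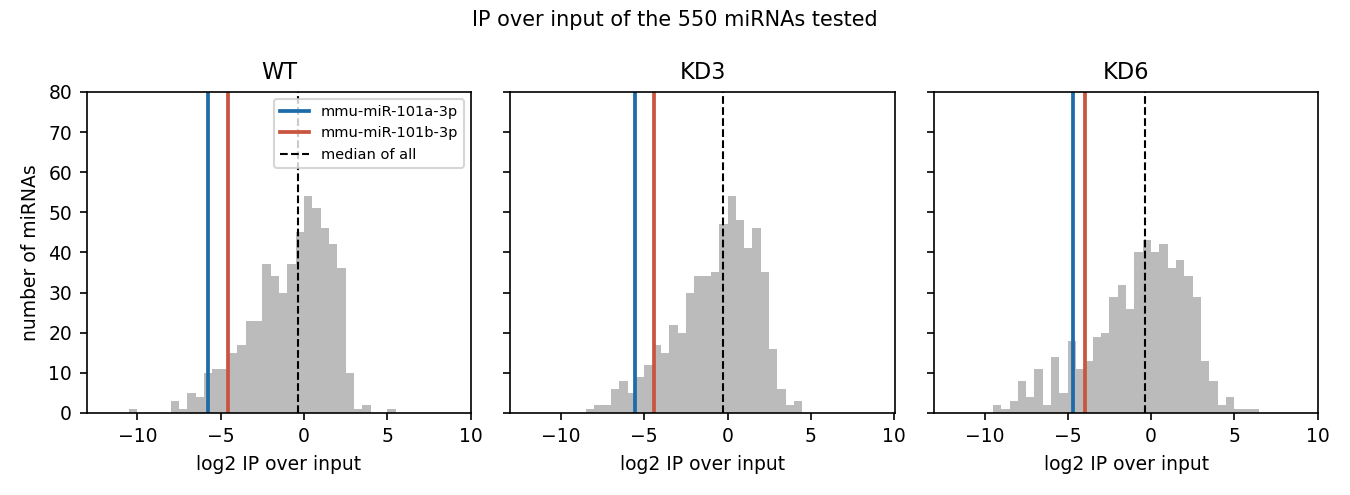
Distribution of the log2 IP over input ratio (horizontal axis) of the 550 miRNAs tested (vertical axis, number of miRNAs per bin) in WT, KD3 and KD6; lines mark mmu-miR-101a-3p (blue), mmu-miR-101b-3p (red) and the median (dashed). Both guides lie in the low tail in each condition, with mmu-miR-101a-3p at -5.78, -5.57 and -4.69.

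As a share of all miRNA reads, the family averaged 0.427% ± 0.00865 (SD, n = 3) in WT input and 0.0159% ± 0.00252 in WT IP. KD3 cells had 0.469% ± 0.0469 in the input and 0.0178% ± 0.00215 in the IP. KD6 cells had 0.384% ± 0.0802 in the input and 0.0152% ± 0.00271 in the IP. On this scale, which uses no scaling factor, the IP share therefore stayed between 0.0126% and 0.0200% in all 9 IP libraries. The read sequences were also less varied in the IP. In WT, mmu-miR-101a-3p had 291.5, 299.5 and 273.8 distinct read sequences in the inputs and 17.6, 22.9 and 28.4 in the IP. The number of distinct sequences moved with the number of reads, since the shallow KD6 input A held 27.1 distinct sequences from 306.2 estimated reads, and the KD6 IP replicate C held 25.4 from 238.8.

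Because both guides are counted in the same library, their ratio within it is free of library scaling. The number of mmu-miR-101a-3p reads for each read of mmu-miR-101b-3p was 0.557, 0.561 and 0.574 in the WT inputs and 0.247, 0.211 and 0.284 in the WT IP. In KD3 it was 0.733, 0.754 and 0.774 in the inputs and 0.379, 0.312 and 0.322 in the IP. In KD6 it was 0.658, 0.550 and 0.533 in the inputs and 0.353, 0.331 and 0.340 in the IP. Every IP library thus had a lower ratio than every input library, and the IP ratios of WT lay below all those of KD3 and KD6. These IP values share the contrast on which the members were chosen and were not tested. The guides are separable only where a read covers base 16 of mmu-miR-101a-3p or differs at an end, and reads that fit both were divided between them.

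Among the inputs, the paralog ratio was higher in KD3 than in WT by 0.42 on the log2 scale, with means of -0.41 ± 0.040 and -0.83 ± 0.023 (SD, n = 3). All 3 KD3 inputs lay above all 3 WT inputs, and the two-sided exact permutation test gave p = 0.10, the smallest value that 3 against 3 libraries allow (adjusted p = 0.15 over 6 ratio tests). In KD6 the mean was -0.79 ± 0.17, which was 0.38 lower than in KD3 (exact permutation p = 0.10, adjusted p = 0.15), again without overlap. KD6 and WT differed by 0.036 (exact permutation p = 1.0), and replicate A of KD6, the shallow library, stood above the other KD6 values. The same tests of the arm ratio, mmu-miR-101a-3p over mmu-miR-101a-5p, gave p-values between 0.10 and 0.40, but the ratio rests on 0 to 3 passenger reads per library and follows the depth of the guide.

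**Figure D3:**
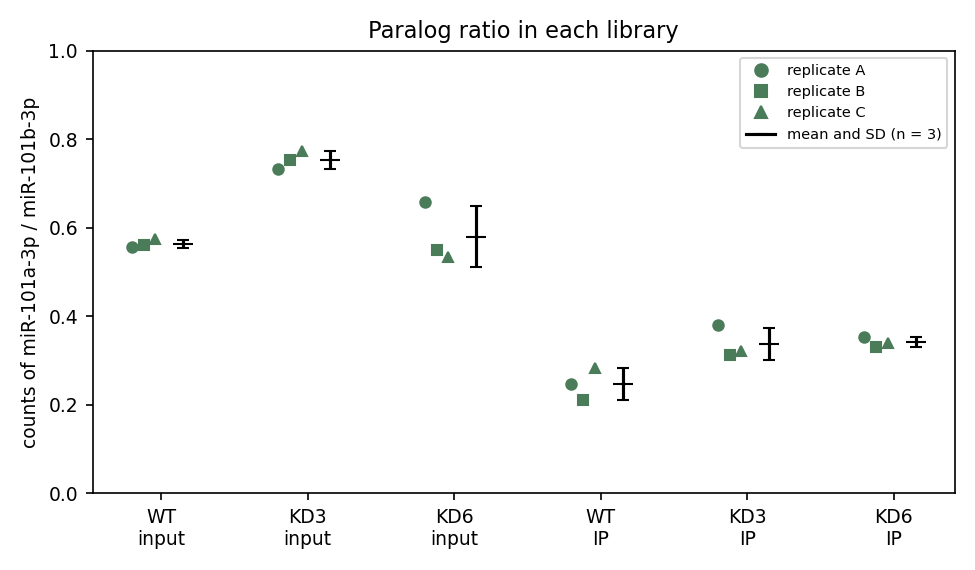
Ratio of the estimated counts of mmu-miR-101a-3p to those of mmu-miR-101b-3p (vertical axis) in each library, by condition and fraction; symbols give the replicate letter, and bars the mean and SD of 3 libraries. The KD3 inputs, at 0.733 to 0.774, lie above the WT inputs, at 0.557 to 0.574, and every IP library lies at 0.379 or below.

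The inputs were then compared between conditions to ask whether Pus1 knockdown was accompanied by a different level of miR-101. No day is given for the WT libraries, and no control knockdown is among the 18 libraries. Knockdown, time in culture and handling therefore cannot be told apart. The 3 comparisons share groups, so their values are set side by side. After 3 days, mmu-miR-101a-3p was at 1940, 1881 and 2404 CPM, above all 3 WT inputs, and mmu-miR-101b-3p at 2649, 2496 and 3107, around its WT values. The log2 differences were 0.36 (95% interval -0.021 to 0.75) and -0.058 (-0.46 to 0.34), with edgeR adjusted p = 0.629 and 0.936. Neither member was called, as was the case for all miRNAs tested (0.0% called, 46 at an unadjusted p under 0.05, and 13 called by DESeq2), and groups without overlap made up 36.2%. When only the 6 libraries compared entered the fit, mmu-miR-101a-3p passed the threshold (0.50, edgeR adjusted p = 0.00335), in a fit that called 77 of 530 miRNAs (14.5%).

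After 6 days, mmu-miR-101a-3p was at 1155, 1133 and 1251 CPM and mmu-miR-101b-3p at 1755, 2059 and 2349, all below the WT inputs. The log2 differences from WT were -0.45 (-0.84 to -0.067) and -0.48 (-0.88 to -0.076), with edgeR adjusted p = 0.202 and 0.199, against a median of -0.23 over all miRNAs. Neither guide was called, with 4.18% of all miRNAs called and 28.2% without overlap. The lack of overlap rested on the TMM factors. In RPM, which uses no factor, replicate C of KD6 had 1656 of mmu-miR-101a-3p, above the WT values of 1524 to 1557, and 3110 of mmu-miR-101b-3p, above the WT values of 2657 to 2797.

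Between KD3 and KD6, mmu-miR-101a-3p fell by 0.81 on the log2 scale (95% interval -1.20 to -0.43, edgeR adjusted p = 0.0131). It was the member called in this comparison, in which 4.36% of all miRNAs were called and 22.2% did not overlap. Its KD6 inputs lay below its KD3 inputs both in CPM and in RPM, where they were 1364, 1180 and 1656 against 1865, 1899 and 2281. For mmu-miR-101b-3p the difference was -0.42 (-0.82 to -0.018), with edgeR adjusted p = 0.266, and its RPM overlapped between the groups. After subtraction of the median of all miRNAs, -0.72 and -0.32 remained. The call of mmu-miR-101a-3p was lost when scaling used library size alone (-0.53, edgeR adjusted p = 0.145) or median-ratio factors (-0.68, edgeR adjusted p = 0.056), and when a KD3 library or KD6 replicate B or C was left out. It was retained without the shallow KD6 replicate A (edgeR adjusted p = 0.022) and with DESeq2 (-0.68, DESeq2 adjusted p = 0.0169).

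The change in the IP over input ratio between conditions was tested as an interaction. It asks whether this ratio of miR-101 differed with Pus1 knockdown, and a different input level moves it as well as a different IP level. These comparisons also share groups. The members had been chosen for scarce reads in the same IP libraries, so these p-values are not independent of that choice. From WT to KD3 the log2 ratio of mmu-miR-101a-3p differed by 0.21 (95% interval -0.34 to 0.77) and that of mmu-miR-101b-3p by 0.16 (-0.41 to 0.73), both with edgeR adjusted p = 1.0. No member was called, beside 0.0% of all miRNAs, of which 17 had an unadjusted p under 0.05 and 0 were called by DESeq2. The median of this difference over all miRNAs was 0.13, so that little of either value remained relative to it (0.079 and 0.026).

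From WT to KD6 the ratio of mmu-miR-101a-3p was 1.09 higher (0.53 to 1.64, edgeR adjusted p = 0.0746) and that of mmu-miR-101b-3p 0.63 higher (0.059 to 1.20, edgeR adjusted p = 0.246). Neither passed the threshold, and 0.0% of all miRNAs did by edgeR, with 98 at an unadjusted p under 0.05 and 35 called by DESeq2. With DESeq2, mmu-miR-101a-3p passed it (1.00, DESeq2 adjusted p = 0.0238). From KD3 to KD6 the differences were 0.87 (0.31 to 1.43) and 0.47 (-0.10 to 1.04), with edgeR adjusted p = 0.154 and 0.379, where 0.182% of all miRNAs were called. Mean IP levels of mmu-miR-101a-3p were 29.4 CPM in WT, 43.9 in KD3 and 45.7 in KD6, beside inputs of 1615, 2075 and 1179. For mmu-miR-101b-3p they were 120.7, 129.5 and 134.4 in the IP and 2864, 2751 and 2054 in the input. From KD3 to KD6 the IP means thus stayed close, and the higher ratios went mostly with the lower inputs. From WT to KD6 both means moved, the input down and the IP up. The sign for mmu-miR-101b-3p turned when library size alone was used, at -0.021 for KD6 against WT and -0.11 for KD6 against KD3, whereas mmu-miR-101a-3p remained at 0.44 and 0.30. With the median of all miRNAs subtracted, KD6 against WT came to 0.87 for mmu-miR-101a-3p, with 0.74 to 0.89 under the other settings on all replicates, and to 0.41 for mmu-miR-101b-3p, with 0.31 to 0.43. With a library left out these values spread wider, at 0.57 to 0.97 and 0.15 to 0.51. The edgeR adjusted p of mmu-miR-101a-3p for KD6 against WT was then 0.118 to 0.426.

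**Figure D4:**
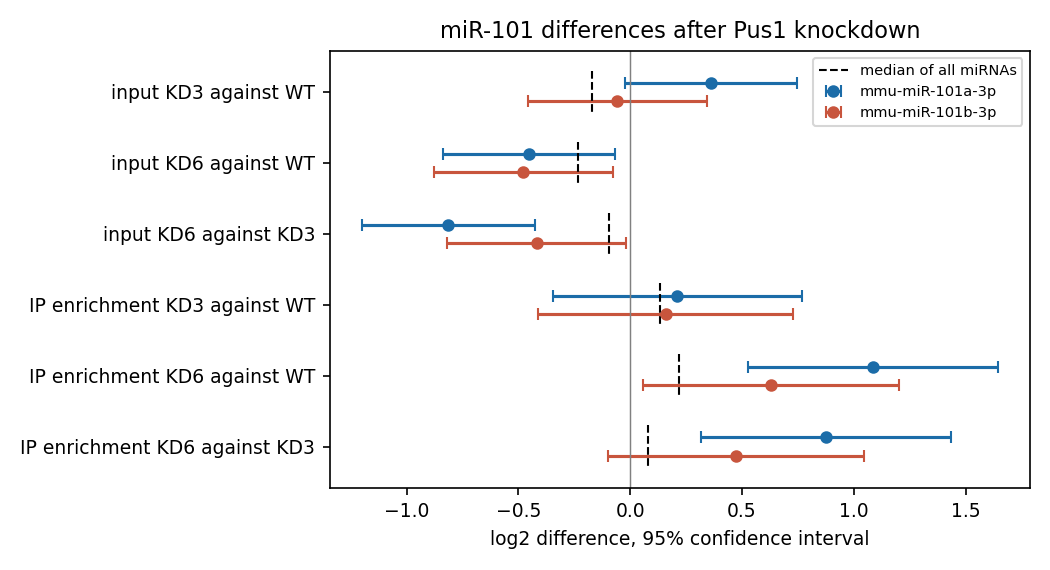
Log2 differences (horizontal axis) of mmu-miR-101a-3p (blue) and mmu-miR-101b-3p (red) in 6 comparisons, with 95% confidence intervals from the edgeR fit; dashed ticks mark the median of all miRNAs in each comparison. In input KD6 against KD3, mmu-miR-101a-3p lies at -0.81, and in IP enrichment KD6 against WT at 1.09, the value farthest from 0.

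Across libraries, the miRNAs whose log2 CPM followed that of mmu-miR-101a-3p most closely were others that were scarce in the IP. Of 147 miRNAs with a mean of at least 100 CPM, Pearson's r over the 18 libraries was highest for miR-381-3p (0.996), miR-542-3p (0.994), miR-300-3p (0.992), miR-30e-5p (0.992) and miR-210-3p (0.991), and it was 0.996 for mmu-miR-101b-3p. These correlations describe the gap between input and IP libraries, which all of them share. In WT the log2 IP over input ratio was -6.62 for miR-381-3p, -3.32 for miR-542-3p, -5.01 for miR-300-3p, -5.51 for miR-30e-5p and -5.01 for miR-210-3p. Over the 9 inputs alone the closest were miR-299a-3p (r = 0.928), miR-134-5p (0.903) and miR-140-3p (0.900), with mmu-miR-101b-3p at 0.808. Of these, miR-134-5p was higher in the IP than in the input, with a log2 ratio of 0.76 in WT, so likeness among the inputs did not go along with scarcity in the IP for each of them.

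Other miRNAs carry the ACAGUA of the miR-101 seed region, shown in capitals at the position where each holds it.
mmu-miR-144-3p: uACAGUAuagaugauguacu
mmu-miR-199a-3p: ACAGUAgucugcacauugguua
mmu-miR-503-5p: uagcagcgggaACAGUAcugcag
mmu-miR-679-3p: agcaagguccuccucACAGUAg

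The same mature sequence is listed for miR-199b-3p as for miR-199a-3p, so their reads cannot be told apart. The abundant mesenchymal miRNA miR-199a-3p was at a mean of 13000 CPM in WT input and 7220 in WT IP, a log2 ratio of -0.85 ± 0.27 (SE), against -5.78 for mmu-miR-101a-3p. In KD3 and KD6 its ratio was -0.39 ± 0.27 and -0.51 ± 0.27. For miR-503-5p the ratios were -1.07 ± 0.32 in WT, -0.89 ± 0.32 in KD3 and -1.19 ± 0.32 in KD6. The ratios of miR-199a-3p and miR-503-5p thus lay nearer to 0 than those of the miR-101 guides in each condition. Of these, miR-503-5p averaged 188 CPM in WT input, below both guides, and miR-199a-3p lay above them. The rare miR-679-3p, at a mean of 1.25 CPM in WT input, was at -1.66 ± 0.91 in WT and -4.07 ± 1.25 in KD3, the latter close to the -4.41 of mmu-miR-101b-3p but resting on 1 read in the 3 IP libraries. In the KD6 IP it had 0 reads, and no ratio is given. The erythroid miR-144-3p had 9 counts in all libraries together and was not tested.

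The members were not short of uridine, the base from which Ψ is made. Uridine made up 28.6% of mmu-miR-101a-3p and 31.6% of mmu-miR-101b-3p, beside a median of 27.3% over the 475 tested miRNAs with a RefSeq sequence (86.4% of those tested). Across these miRNAs, uridine content and the log2 ratio in WT had a Pearson's r of 0.058. GC content was 33.3% in mmu-miR-101a-3p, with 18 of the 475 miRNAs lower, and 42.1% in mmu-miR-101b-3p, with a median of 50.0%. Its r with the log2 ratio was 0.200 in WT, 0.193 in KD3 and 0.186 in KD6. These are correlations across miRNAs of the same libraries, which are not independent replicates, and the part of base composition in the ratio of miR-101 was not tested.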

How the data were processed

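Small RNAs (under 200 nt) from NIH/3T3 cells were sequenced in 18 libraries, as input or after Ψ IP. The paper's Ψ IP method also selects RNAs of about miRNA length from a gel before the IP. Whether the inputs passed this step is not stated there. The authors ran SeqImp (version not given in the sources used here) with mm10, Ensembl 89 and miRBase 21, and deposited estimated counts of mapped reads per miRNA row, not normalized, in which reads fitting several loci were divided. Other deposited columns give distinct read sequences, used as a description. Of the non-zero estimated counts, 47.0% were not whole. Counts were summed per mature miRNA and rounded. The row of total mapped reads names no miRNA and stayed out of library sizes.

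The quasi-likelihood test of edgeR 4.0.16 (R 4.3.3; glmQLFit and glmQLFTest after filterByExpr and TMM scaling) was applied with 6 group means over 18 libraries and no block. This left 550 miRNAs, with Benjamini-Hochberg adjustment over all of them and a threshold of 0.05. The SE was taken from the F statistic, as |log2 ratio|/√F. Ratios of members used counts with 0.5 added. The members and lists were chosen with earlier results of these data known. Named beyond the members were other miR-101 entries, miRNAs holding ACAGUA (bases 2 to 7 of mmu-miR-101a-3p), the 5 and 3 miRNAs with the highest Pearson's r with mmu-miR-101a-3p over all libraries and over inputs (mean of at least 100 CPM), and cell type markers. RefSeq held sequences for 1623 of 1907 miRNAs, and neighbouring genes were read from GENCODE M21, on GRCm38 like mm10. Coordinates are 1-based. Intervals and floors (3 counts) cover counting error only.

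Deviations from the group means correlated between same-letter libraries (188 miRNAs) at 0.20 to 0.61 for KD3 against WT input and 0.24 to 0.34 for KD6 against KD3 input, so the values alone pair these. Other comparisons had a pair at or under 0.1. The fit was tested on simulated counts, in which each miRNA had the same mean in input and IP before changes were made. For input KD6 against KD3 it recovered 53.4% of 189 miRNAs changed 2-fold, and for IP enrichment KD6 against WT 18.3% of 191. At 4-fold it recovered 93.7% of 189 and 81.3% of 187. The recovery for miRNAs as scarce in the IP as the guides was not simulated. Alternatives were other scaling factors and library sizes, other filters, the row with the largest total, DESeq2 1.42.0, replicate blocks, only the libraries compared, and each library left out.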

Additional observations from a re-analysis of the deposited data

How the results depend on the processing

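Calls of members depended on the settings, with scaling, filters, the test and the libraries used among them. For input KD6 against KD3, 1 member was called, and 0 with median-ratio factors, library size without factors, total mapped reads, no filter, a mean of at least 10 counts or only the libraries compared; leaving out single libraries gave 0 to 1. For input KD3 against WT, 0 became 1 with only the libraries compared, and for IP enrichment KD6 against WT, 0 became 1 with the row with the largest total or DESeq2. The replicate block by letter changed no member call (mmu-miR-101a-3p, input KD6 against KD3: -0.81, edgeR adjusted p = 0.0228), nor did the block by IP and input pair. The mean paralog differences paired by letter were 0.42, 0.036 and -0.38. They equal the unpaired values by construction, so the differences themselves say nothing about the effect of pairing. The exact sign-flip test on the 3 pairs gave p = 0.25 for 0.42 (KD3 against WT) and for -0.38 (KD6 against KD3). That is the smallest value that 3 pairs allow.

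The median log2 IP over input of the 2 members tested was -5.17 in WT, -4.87 with median-ratio factors, -4.87 with DESeq2 and -4.48 with a mean of at least 10 counts, and -4.53 to -4.27 with a library left out. In KD3 it was -4.99, -5.32 with total mapped reads, -4.42 with a mean of at least 10 counts, and -4.64 to -4.29 with a library left out. In KD6 it was -4.32, -4.81 with library size, -5.14 with total mapped reads, -4.85 with no filter, -3.84 with a mean of at least 10 counts, -3.84 with only the libraries compared, and -4.58 to -3.74 with a library left out. Leaving out a library also changes which miRNAs pass the filter and the factors. The cause of the other shifts was not tested.

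Small differences changed sign. For IP enrichment KD3 against WT, total mapped reads gave -0.088 for mmu-miR-101a-3p and -0.15 for mmu-miR-101b-3p, and leaving out single libraries gave -0.29 to 0.15 and -0.26 to 0.16. For input KD3 against WT, mmu-miR-101b-3p was at 0.078 with median-ratio factors, 0.12 with no filter, 0.015 with a mean of at least 10 counts, 0.078 with DESeq2 and 0.079 with only the libraries compared, and at -0.049 to 0.094 with a library left out. For mmu-miR-101b-3p, library size and total mapped reads gave -0.021 and -0.17 for IP enrichment KD6 against WT, and -0.11 and -0.016 for KD6 against KD3. For input KD6 against WT, leaving out a library gave -0.28 (without KD6 replicate A) to 0.013 (without KD6 replicate B) for mmu-miR-101a-3p, and -0.058 (without KD6 replicate A) to 0.095 for the paralog ratio. The other paralog differences kept their direction, at 0.40 to 0.44 (KD3 against WT) and -0.48 to -0.32 (KD6 against KD3) with a library left out. The arm ratio gave no value with 0 added, since the passenger was at 0 in some inputs. Depth limits the IP values, which rest on 116 to 239 reads of mmu-miR-101a-3p per library.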
